A study of Mus musculus with 8 samples.

Results

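A group of 10 genes of arginine use and polyamine turnover was followed over 8 arrays: the arginases Arg1 and Arg2, the arginine-making enzymes Ass1 and Asl, and 6 genes of polyamine synthesis, control and breakdown, Odc1, Azin1, Azin2, Srm, Sms and Sat1. They were chosen by function, with earlier results of these data known. Found by gene name or listed synonym in the deposited array annotation, they make up 10 of 27343 names and 16 of 41174 probes. All 10 entered the tests, which ran over 15456 genes. RAW264.7, a mouse macrophage-like cell line, was grown in medium with 15% heat-inactivated serum. It was left untreated (control), given all-trans retinoic acid (ATRA), given interleukin-13 (IL-13), or given both agents, with no doses stated in the labels. Each of the 4 treatments had 1 array at 12 h and 1 at 24 h, so the disagreement between the times is the replicate spread here. The labels class control and ATRA cells as unpolarized, IL-13 cells as M2 macrophages and cells given both agents as suppressed in M2 polarization. They do not say whether the cultures were separate, and p-values then measure only the spread between these arrays, which may be technical.

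Arginase splits arginine into urea and ornithine, and ornithine decarboxylase turns ornithine into putrescine, from which spermidine and spermine are built. In macrophages arginase competes with nitric oxide synthase for the same arginine, and Arg1 is a widely used marker of alternative activation by IL-4 and IL-13 in the mouse. Retinoic acid acts through nuclear receptors that switch genes on or off at their binding sites.

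Every member probe was 1 spot per array, so the probe sequence shows what each value rests on. The 4 probes below carry the genes that differed most, in 5′ to 3′ order with mm9 positions from the deposited annotation. The Arg1 probe lies on the minus strand at chr10:24636194-24636253 and the Arg2 probe on the plus strand at chr12:80252972-80253031. Both are unbroken stretches of coding sequence, and the longest run that these probes share is 7 bases. The Azin2 probe, which the deposited annotation names Adc, lies in coding sequence on the minus strand at chr4:128623339-128623398 and shares no run longer than 6 bases with the Odc1 probe used or 5 bases with the Azin1 probe used. The Ass1 probe used spans a splice junction, since its 60 bases cover 1640 bases of the genome at chr2:31374279-31375918 on the plus strand. Its last 20 bases, in capitals, are also the first 20 bases of the other Ass1 probe, so that pair is not independent.
Arg1: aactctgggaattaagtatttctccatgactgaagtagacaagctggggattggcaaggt
Arg2: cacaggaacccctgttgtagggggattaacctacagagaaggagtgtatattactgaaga
Azin2: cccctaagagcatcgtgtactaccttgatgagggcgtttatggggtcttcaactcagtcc
Ass1: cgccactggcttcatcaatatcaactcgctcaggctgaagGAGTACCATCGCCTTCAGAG

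Before scaling, the 75th percentile of the signal was between 449 and 743 (both extremes being IL-13 arrays), and every array was scaled to the same percentile. Between 54.1% and 61.4% of probes were well above background, and no probe was saturated. Slide 1 held the 12 h arrays and slide 2 those of 24 h, which means that a time difference cannot be told apart from a slide difference, while each treatment comparison was made within both slides. The 12 macrophage markers were well above background on all 8 arrays. Arg1 is also made by hepatocytes and by some granulocytic cells. Of the 5 hepatocyte markers, Alb, Apoa1, Ttr and Cps1 were well above background on 0 arrays and Otc on 2. The 4 epithelial markers were well above background on 0 arrays, as were 4 of 6 fibroblast markers. Of 4 neutrophil markers on the array, Elane was at 0 arrays, S100a9 at 1, and S100a8 and Mpo at 8. Their summed scaled signal was 162 to 330 in control, 158 to 330 in ATRA, 201 to 442 in IL-13 and 132 to 396 with both agents, so the 4 treatments overlapped.

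**Figure D1:**
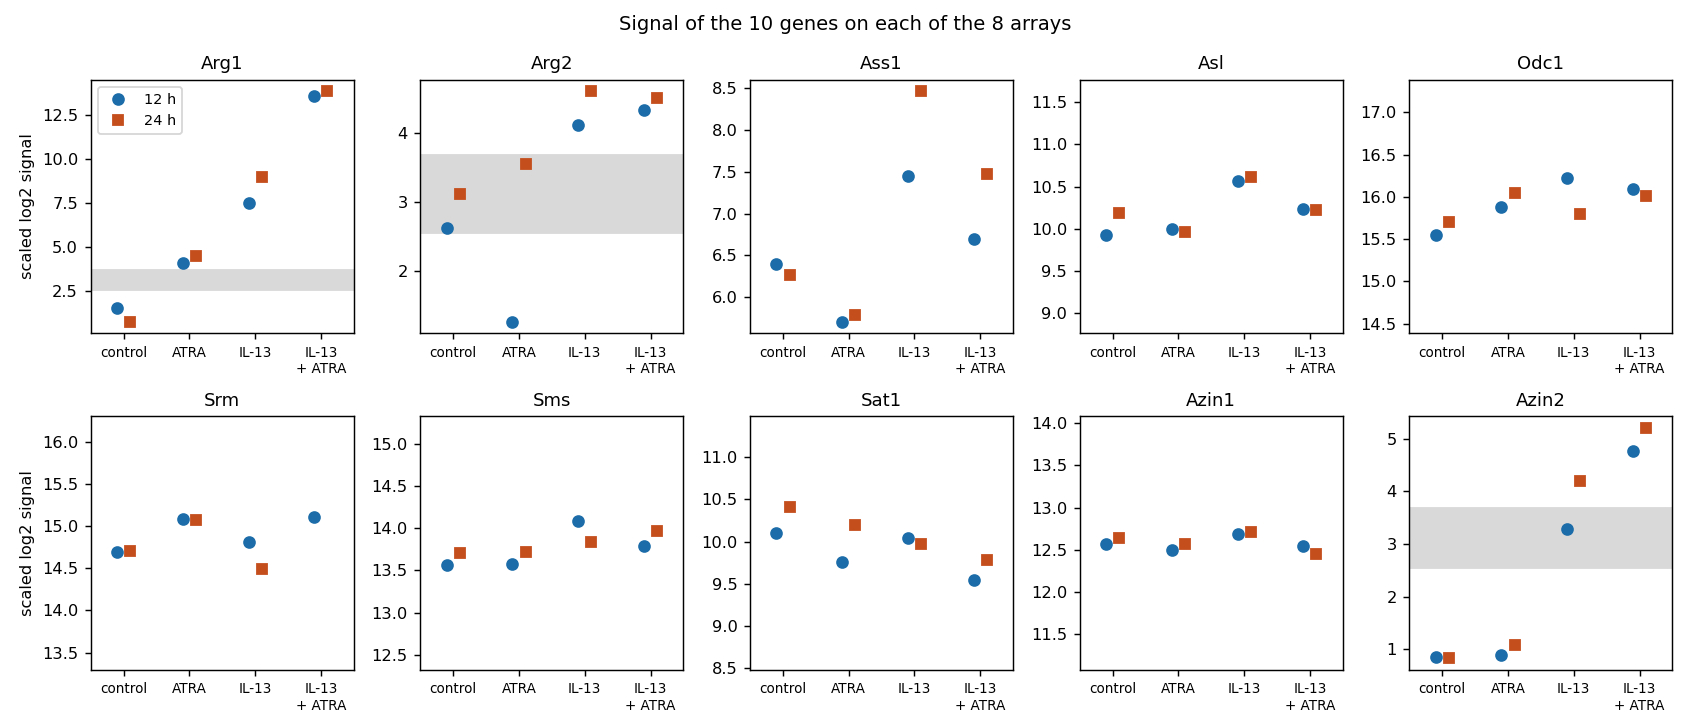
Scaled log2 signal (y axis) of the brightest passing probe of each of the 10 genes in the 4 treatments (x axis), with circles for 12 h and squares for 24 h; each point is 1 array, the y axes differ in position and span, and the grey band covers the lowest signals called well above background on the 8 arrays. Arg1 climbs from below the band in control to far above it with both agents and Azin2 lies below the band without IL-13, within it on the 12 h IL-13 array and above it on the other 3 arrays with IL-13, while Odc1, Srm, Sms and Azin1 stay within a narrow range.

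IL-13 raised Arg1, and IL-13 with ATRA raised it much further. In control cells the scaled Arg1 signal was 2.98 at 12 h and 1.72 at 24 h, and neither value was well above background. ATRA alone gave 17.4 and 22.7, both above background, and IL-13 alone gave 179 and 506. Cells given both agents reached 12136 and 14640. The 4 treatments did not overlap, and the order control, ATRA, IL-13, both agents was the same at 12 h and 24 h. Because control lay below background, a fold against it is given as a nominal bound, set by the lowest signals well above background on those arrays. Some probes with signals over such limits were still not well above background, so a true fold can be smaller than its bound.

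Arg1 was higher with IL-13 than in control, with a nominal bound of 37.0-fold (fitted log2 difference 7.05 ± 0.50 (SE), limma adjusted p = 0.017). The difference was 5.91 at 12 h and 8.20 at 24 h on the log2 scale. This call was lost when either control array was left out, with adjusted p up to 0.105, and also with no filter on dim probes or with only the 4 compared arrays fitted, with adjusted p up to 0.174. With both agents Arg1 was higher than in control, with a nominal bound of 1640.5-fold (fitted 12.52 ± 0.50, limma adjusted p = 0.0015). This call held with each array left out in turn. With normexp, a background correction that adds 50 to every signal before the log2, the fitted differences were 2.51 for IL-13 and 7.63 for both agents, both still called, which are smaller folds than these bounds.

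Cells given both agents, labelled as suppressed in M2 polarization, had the highest Arg1 signal at each time. Adding ATRA to IL-13 raised Arg1 by 5.47 ± 0.50 on the log2 scale, which is 44.3-fold (limma adjusted p = 0.0162). The difference was 6.08 at 12 h and 4.85 at 24 h. Adding IL-13 to ATRA raised it by 9.39 ± 0.50, which is 671-fold (limma adjusted p = 0.00989), with 9.45 at 12 h and 9.34 at 24 h. The first of these calls was lost when either array of cells given both agents was left out, with adjusted p up to 0.113. The second was lost without either of those arrays or without the ATRA array at 12 h, with adjusted p up to 0.0785.

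ATRA alone left Arg1 just short of the threshold. Its signal lay above control by a nominal bound of 2.44-fold, with a fitted log2 difference of 3.13 ± 0.50 and limma adjusted p = 0.0551. The difference was 2.55 at 12 h and 3.72 at 24 h, so both ATRA arrays lay above both control arrays. With the IL-13 array of either time left out the adjusted p was 0.0381, and with normexp the fitted difference was 0.36 with adjusted p = 0.731. The interaction, which asks whether both agents together departed from the sum of their separate log2 differences, was 2.34 ± 0.71 (unadjusted p = 0.0192, limma adjusted p = 1.0). It rests on control signals below background, and with normexp it was 4.76 (adjusted p = 0.0284).

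Arg2 encodes the mitochondrial arginase and its probe was dim. Its scaled signal was 6.15 and 8.70 in control at 12 h and 24 h, 2.40 and 11.7 with ATRA, 17.4 and 24.4 with IL-13, and 20.3 and 22.7 with both agents. It was well above background on 1 of 2 arrays in control and in ATRA and on 2 of 2 in each IL-13 treatment. All 4 arrays with IL-13 lay above all 4 without it. The fitted log2 difference was 1.49 ± 0.52 for IL-13 against control (limma adjusted p = 0.177) and 1.55 ± 0.52 for both agents against control (limma adjusted p = 0.127), neither past the threshold. The latter passed it when only the 4 compared arrays were fitted (adjusted p = 0.02) or when either ATRA array was left out (adjusted p = 0.0189), and both agents against ATRA passed it without the 24 h ATRA array (adjusted p = 0.0391). With normexp the differences from control shrank to 0.25 for IL-13 (limma adjusted p = 0.458) and 0.46 for both agents (limma adjusted p = 0.166). The Arg2 probe passed the filter only through the IL-13 treatments, and such a pass favours a rise. Adding ATRA to IL-13 gave 0.06 ± 0.52, against 5.47 for Arg1, and the 2 arginases were not tested against each other.

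Azin2, antizyme inhibitor 2, resembles ornithine decarboxylase, has no known decarboxylase activity of its own, and frees the active enzyme from its antizyme. Its scaled signal was 1.80 and 1.78 in control at 12 h and 24 h, 1.86 and 2.10 with ATRA, 9.81 and 18.5 with IL-13, and 27.1 and 36.9 with both agents. The arrays without IL-13 were all below background, and those with IL-13 were all higher than them. Well above background were only the 24 h array with IL-13 and both arrays with both agents, and the probe entered the test through the latter group.

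IL-13 raised Azin2 by a fitted log2 difference of 2.91 ± 0.23 (limma adjusted p = 0.0204), with 2.45 at 12 h and 3.38 at 24 h. Since control was below background, the nominal bound is 1.66-fold, with the gene measured on 1 of 2 IL-13 arrays. Both agents raised it by a fitted 4.15 ± 0.23 over control (limma adjusted p = 0.00329), with a nominal bound of 3.89-fold. Over ATRA alone they raised it by 4.0 ± 0.23 (limma adjusted p = 0.0119), with a nominal bound of 3.64-fold. The call for IL-13 was lost without either control array, with adjusted p up to 0.118, and with normexp, where the difference was 0.26. With normexp both agents gave 0.72 over control, still called, and 0.68 over ATRA, not called, which are smaller folds than these bounds. The call against ATRA was lost without any 1 of the control, ATRA or both-agents arrays, with adjusted p up to 0.0804. The call for both agents against control held with each array left out.

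Adding ATRA to IL-13 gave an Azin2 difference of 1.23 ± 0.23 that missed the threshold (limma adjusted p = 0.0685), with 1.47 at 12 h and 1.0 at 24 h. ATRA alone against control gave 0.15 ± 0.23 (limma adjusted p = 0.85), with both groups below background. The interaction was 1.09 ± 0.33 (unadjusted p = 0.0192, limma adjusted p = 1.0).

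**Figure D2:**
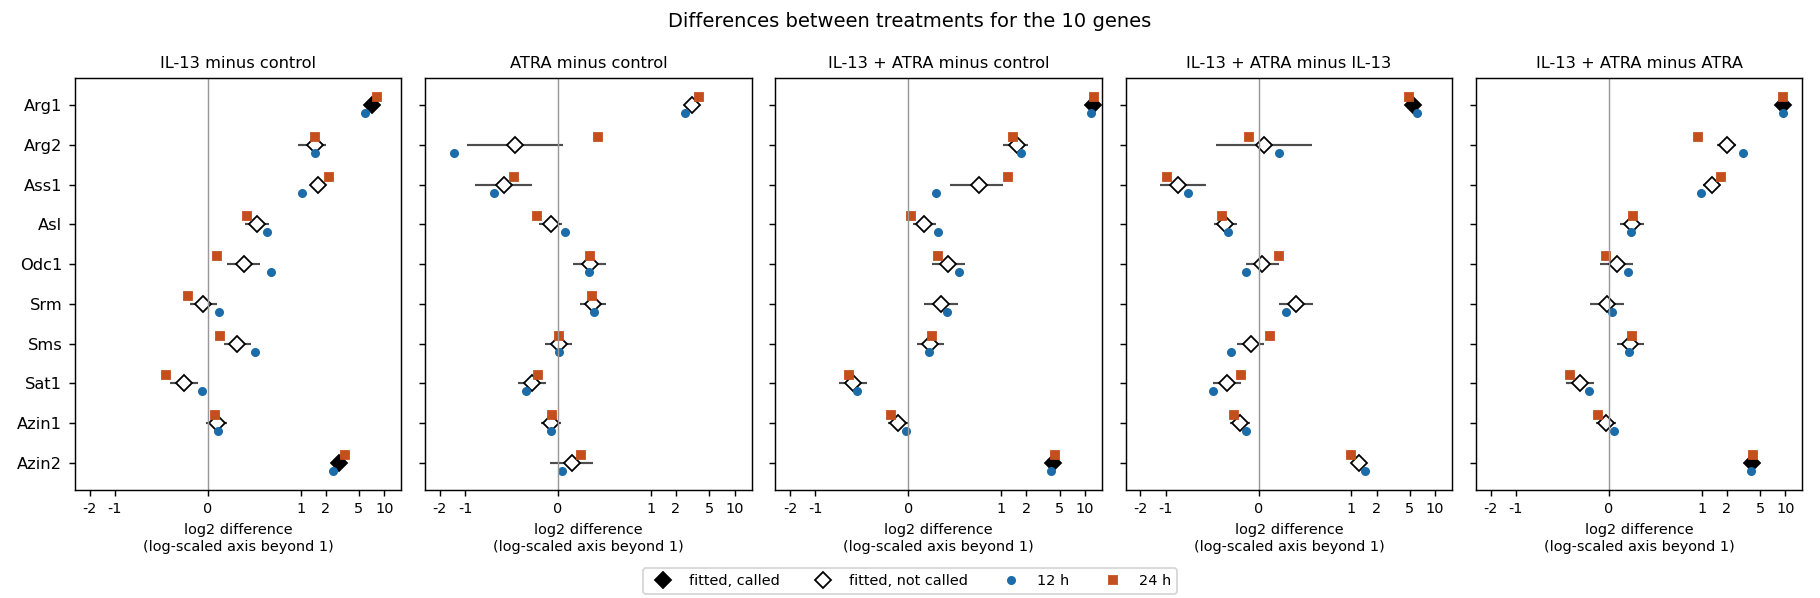
Log2 differences (x axis, linear to 1 and log-scaled beyond) of the 10 genes (y axis) in 5 comparisons of treatments; diamonds are fitted differences with bars for limma's SE, filled where the adjusted p was under 0.05, and small circles and squares are the differences between single arrays at 12 h and 24 h. Filled diamonds occur for Arg1 in 4 comparisons and for Azin2 in 3; values against a group below background are fitted and no bound.

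Arg1 and Azin2 were thus the 2 members called with IL-13 against control, both higher, where 1.32% of all genes were called in either direction. For both agents against control 2 members were called (the same 2, both higher) with a background of 8.55% of genes. For both agents against IL-13 alone the count was 1 member against 2.65% of genes, and for both agents against ATRA alone it was 2 members against 0.369%. ATRA against control gave 0 called members by limma, against 1.86% of genes, and 1 member, Arg1, had an unadjusted p under 0.05. The interaction gave 0 called members by limma, against 0.0194% of genes, and 2 had an unadjusted p under 0.05. The median log2 difference over the 10 members was 0.46 for IL-13 against control and 0.39 for both agents against control, and over all genes it was -0.01 and -0.03. These comparisons share arrays, the first 2 the control arrays, so they are not independent of each other. Arg1 and Azin2 passed the filter on dim probes only through treated groups, which favours a rise from control. The shares over all genes are therefore no like-for-like background for these counts. With only probes well above background on all 8 arrays, 7 members were left and 0 were called with IL-13 against control.

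By size alone, 4 of 10 members (Arg1, Arg2, Ass1 and Azin2) were at least 2-fold higher in measured signal at both times with IL-13 against control, and 2.89% of genes passed that rule in either direction. With both agents against control 3 of 9 members did (Arg1, Arg2 and Azin2), with a background of 4.52%. With both agents against IL-13 it was Arg1 alone of 9, with a background of 2.77%. With both agents against ATRA it was Arg1 and Azin2, with a background of 1.52%, and with ATRA against control it was Arg1, with a background of 2.58%. This rule takes signals below background as measured, and for Azin2 the nominal bound for IL-13 against control was 1.66-fold. Arg1, Arg2 and Azin2 also passed the filter only through treated groups, which favours a rise from the dim groups. Srm could not be counted where the 24 h array of both agents was needed.

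Ass1, argininosuccinate synthase, and Asl, argininosuccinate lyase, remake arginine from citrulline in consecutive steps. The scaled signal of Ass1 was 84.4 and 76.6 in control at 12 h and 24 h, 52.2 and 55.3 with ATRA, 175 and 353 with IL-13, and 104 and 178 with both agents. IL-13 arrays were above control and ATRA arrays below it at both times, with both agents in between IL-13 and control. The fitted log2 difference was 1.63 ± 0.31 for IL-13 against control (limma adjusted p = 0.0772), with 1.05 at 12 h and 2.21 at 24 h. ATRA gave -0.58 ± 0.31 on untreated cells (limma adjusted p = 0.473) and -0.87 ± 0.31 on top of IL-13 (limma adjusted p = 0.218). None of these passed the threshold. The signs were the same at both times and on the other Ass1 probe, which gave 0.79 and 2.08 for IL-13 against control and -0.65 and -1.11 for ATRA on top of IL-13.

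The fitted differences of Asl had the same signs as those of Ass1 over a smaller span. Its scaled signal was 971 and 1168 in control at 12 h and 24 h, 1023 and 996 with ATRA, 1515 and 1563 with IL-13, and 1208 and 1191 with both agents. The IL-13 arrays lay above all others. IL-13 against control gave 0.53 ± 0.12 (limma adjusted p = 0.112) and ATRA on top of IL-13 gave -0.36 ± 0.12 (limma adjusted p = 0.213). Over the 8 arrays the log2 signals of Ass1 and Asl had a Pearson r of 0.87, given as a description of arrays that share treatments and scaling. With limma's trend and robust settings IL-13 against control was past the threshold for Ass1 (adjusted p = 0.0307) and Asl (adjusted p = 0.0487).

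**Figure D3:**
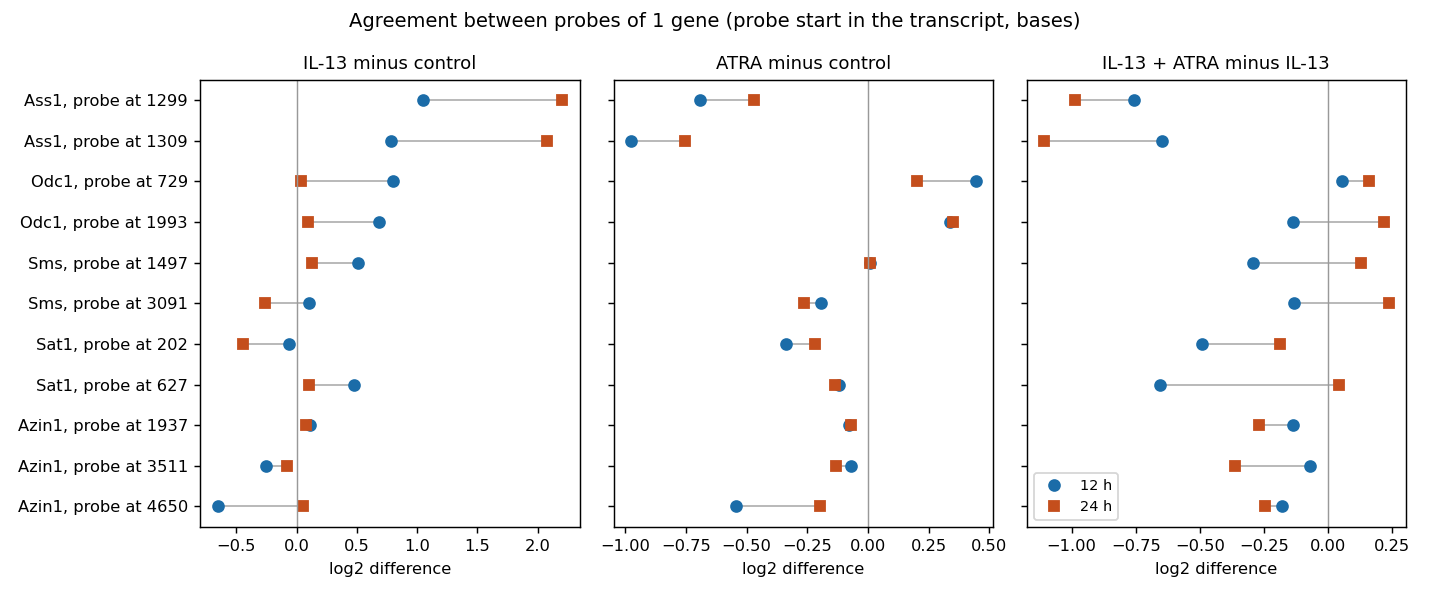
Log2 differences between single arrays (x axis) at 12 h (circles) and 24 h (squares) for each probe (y axis, named by its start in the transcript in bases) of the 5 genes with several probes, in 3 comparisons of treatments. Both Ass1 probes lie right of 0 for IL-13 minus control and left of 0 in the other 2 panels, and the Sat1 probes lie on opposite sides of 0 for IL-13 minus control.

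RefSeq promoter sequences of GRCm38.p6 were matched for 4 of the 10 genes: Ass1, Odc1, Sat1 and Sms. Arg1, Arg2, Asl, Srm, Azin1 and Azin2 had none matched. The Ass1 window is shown because it holds the E-box CACGTG, the core bound by Myc and related factors, and Myc differed between these treatments. The 250 bases before the Ass1 start, chr2:31470020-31470269 on the plus strand, hold the E-box (capitals) 36 bases before the start.
Ass1 promoter: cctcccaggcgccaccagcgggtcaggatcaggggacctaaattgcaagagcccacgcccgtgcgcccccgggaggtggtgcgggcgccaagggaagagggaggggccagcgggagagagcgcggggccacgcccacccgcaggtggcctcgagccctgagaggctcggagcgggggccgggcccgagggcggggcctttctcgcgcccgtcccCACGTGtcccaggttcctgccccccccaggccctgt
On both strands, CACGTG occurs in 6.02% of the 32851 promoter windows of that length. The other motifs searched were TATAAA (12.4% of windows), the STAT6 form TTCNNNNGAA (5.85%), the C/EBP form TTNCNNNAA (32.9%) and the retinoid receptor core AGGTCA (14%), and none of these letters lie in the Ass1 window. The Odc1 window held none of the 5 motifs, and that of Sat1 held a C/EBP form 144 bases before the start. Of the 2 Sms windows, 1 held none, and the other held CACGTG 196 bases, C/EBP forms 187 and 133 bases and AGGTCA 18 bases before the start. A match describes letters and not a bound site. Bases outside these windows, also those after the start, were not searched.

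The genes that make polyamines stayed within narrow ranges. Odc1, ornithine decarboxylase, the first and rate-limiting step, had a scaled signal of 47842 and 53128 in control at 12 h and 24 h, 60519 and 67678 with ATRA, 76789 and 56862 with IL-13, and 69791 and 66184 with both agents. Every treated array was above the control array of its time. The fitted log2 differences against control were 0.34 ± 0.18 for ATRA (limma adjusted p = 0.461), 0.39 ± 0.18 for IL-13 (limma adjusted p = 0.248) and 0.43 ± 0.18 for both agents (limma adjusted p = 0.188). With IL-13 the difference was 0.68 at 12 h and 0.10 at 24 h, and the second Odc1 probe gave 0.80 and 0.03.

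Srm, spermidine synthase, had a scaled signal of 26526 and 26685 in control, 34595 and 34511 with ATRA, 28821 and 22986 with IL-13, and 35321 with both agents at 12 h. Its spot on the 24 h array of both agents was flagged as an outlier by the scanner software and dropped from the fit. In the authors' deposited table the log2 value of that spot was 11.4 and those of the other 7 arrays ran from 14.5 to 15.1. The 3 arrays with ATRA lay above the 4 without it. ATRA against control gave 0.38 ± 0.14 (limma adjusted p = 0.339), with 0.38 at 12 h and 0.37 at 24 h.

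Sms, spermine synthase, ran from 12143 in control at 12 h to 17315 with IL-13 at 12 h. Its fitted differences from control were 0.01 ± 0.14 for ATRA, 0.32 ± 0.14 for IL-13 and 0.24 ± 0.14 for both agents. The second, dimmer Sms probe gave -0.23, -0.08 and -0.03 in the same order, each of opposite sign. Azin1, antizyme inhibitor 1, ran from 5577 with both agents at 24 h to 6716 with IL-13 at 24 h, a span of 0.27 on the log2 scale over the 8 arrays. The other 2 Azin1 probes spanned 0.83 and 0.44 and gave -0.51 and -0.38 for both agents against control, where the probe used gave -0.11. Over the probes used for Odc1, Srm, Sms and Azin1 and the 5 comparisons of treatments, 0 of 20 differences were called by limma, and the largest was 0.43 (1.35-fold), for Odc1 with both agents against control, where its second probe gave 0.52.

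Sat1, spermidine/spermine N-acetyltransferase, starts the breakdown and export of polyamines. The scaled signal of its brighter probe was 1099 and 1365 in control at 12 h and 24 h, 868 and 1173 with ATRA, 1055 and 1001 with IL-13, and 750.2 and 880 with both agents. Within each time, cells given both agents had the lowest value. Both agents against control gave -0.59 ± 0.15 (limma adjusted p = 0.0746), which passed the threshold with normexp (adjusted p = 0.0446), with trend and robust settings (adjusted p = 0.0295) and without either IL-13 array (adjusted p = 0.0479). The second Sat1 probe gave -0.02 for the same comparison, so the 2 probes disagree.

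The regulators of these genes from a list of 14 included Myc, a transcription factor known to activate Odc1 in many cells. Myc had 3 probes, of which only the brightest that passed the filter is given. The scaled Myc signal was 393 and 230 in control at 12 h and 24 h, 48.6 and 31.1 with ATRA, 983 and 559 with IL-13, and 331 and 132 with both agents. ATRA lowered it by a log2 difference of -2.95 ± 0.19 (limma adjusted p = 0.00882), which is 7.73-fold, and lowered it on top of IL-13 by -1.82 ± 0.19 (limma adjusted p = 0.0201). IL-13 raised it by 1.30 ± 0.19 (limma adjusted p = 0.0498) and raised it over ATRA by 2.43 ± 0.19 (limma adjusted p = 0.0222). The fitted differences of Odc1 were 0.34 for ATRA against control and 0.04 for both agents against IL-13, opposite in sign to Myc. Its differences of 0.39 for IL-13 against control and 0.09 for both agents against ATRA had the sign of Myc. Those of Srm were 0.38, 0.40, -0.05 and -0.02 in the same order, all of opposite sign to Myc. None of these was called, and a link to Myc was not tested. For Ass1 the signs in these 4 comparisons were those of Myc, though no Ass1 difference was called. For both agents against control the signs were opposite, with -0.52 for Myc and 0.76 for Ass1, neither called. A link between Myc and Ass1 was not tested. Klf4, a zinc finger factor of macrophage activation, fell with ATRA by 2.34 ± 0.26 on the log2 scale (limma adjusted p = 0.0272). Irf8, a factor of macrophage development, rose when ATRA was added to IL-13, by 0.90 ± 0.14 (limma adjusted p = 0.0448). The calls of regulators were not checked under other settings, and those of Irf8 and of Myc with IL-13 lay near the threshold.

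**Figure D4:**
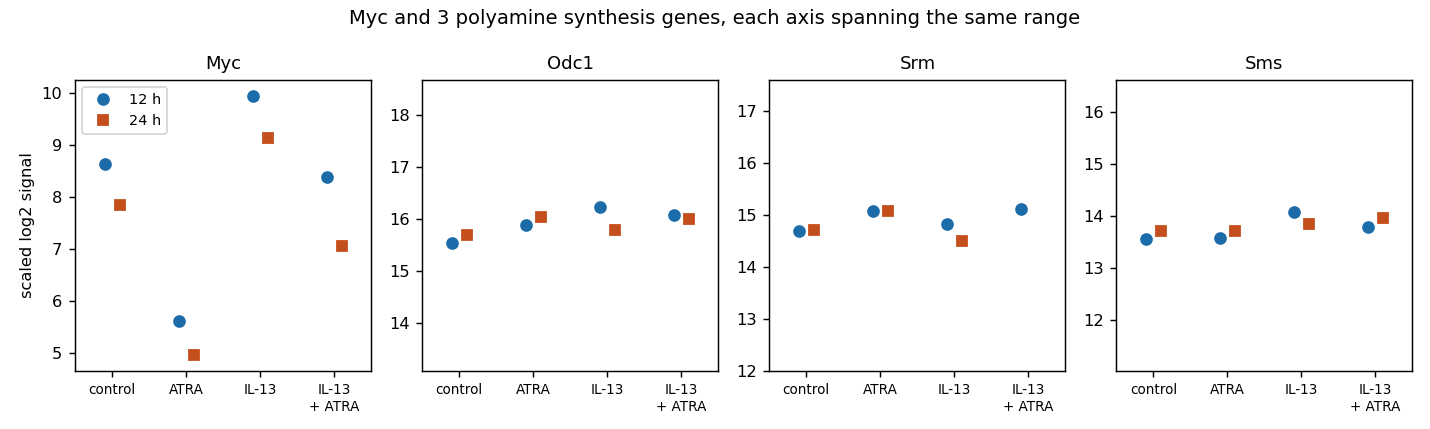
Scaled log2 signal (y axis, each panel spanning the same log2 range) of Myc, Odc1, Srm and Sms in the 4 treatments (x axis), with circles for 12 h and squares for 24 h and each point 1 array. Myc is lowest on the 2 ATRA arrays and highest on the 2 IL-13 arrays within each time, while Odc1, Srm and Sms vary far less.

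A list of 45 other genes of arginine, proline and polyamine metabolism had 35 tested. By limma, 1 of 35 was called with IL-13 against control (0 higher, 1 lower), 3 with both agents against control (2 higher, 1 lower), and 0 with ATRA against control, with both agents against IL-13 and with both agents against ATRA, where 6, 5 and 5 had an unadjusted p under 0.05. Over all 15456 genes the called shares were 1.32% and 8.55% in the first 2 of these comparisons, and 2336, 2933 and 1995 genes had an unadjusted p under 0.05 in the other 3, so the list's counts are not set apart from them. The list's median log2 difference was 0.06 for IL-13 against control and 0.09 for both agents against control. Nos1, the neuronal nitric oxide synthase, was the gene called lower in both comparisons. Its dim scaled signal was 22.5 and 12.1 in control at 12 h and 24 h, 7.37 and 5.40 with IL-13, and 8.53 and 4.96 with both agents. It was well above background on both control arrays and on 0 arrays with IL-13. It was thus lower with IL-13 by a nominal bound of 1.90-fold (limma adjusted p = 0.0351) and with both agents by 1 of 1.73-fold (limma adjusted p = 0.0143). Its probe entered the test only through the control arrays, and such a pass favours a fall from control. Nos2, the inducible synthase that competes with arginase in activated macrophages, did not rise well above background on any of the 8 arrays and was not tested.

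Gatm, which uses arginine for the first step of creatine synthesis, rose with both agents. Its scaled signal was 2141 and 2674 in control at 12 h and 24 h, 2672 and 2809 with ATRA, 2452 and 3321 with IL-13, and 4405 and 5292 with both agents, and the last 2 lay above all others. The log2 difference from control was 1.01 ± 0.13 (limma adjusted p = 0.0152). Slc25a15, the mitochondrial ornithine carrier, rose with both agents by 0.61 ± 0.13 (limma adjusted p = 0.0471), which is near the threshold. The calls of list genes were not checked under other settings. Otc and Cps1, the urea cycle enzymes that with the others make the full cycle in liver, did not pass the filter on dim probes. Among genes not called, the arginine carrier Slc7a2 was higher with both agents than with ATRA, where it was below background. The nominal bound was 1.67-fold (limma adjusted p = 0.292). The carrier Slc7a3 differed by 2.04 ± 0.71 between both agents and IL-13 (limma adjusted p = 0.215), with 3.61 at 12 h and 0.47 at 24 h. The polyamine exporter Atp13a2 differed by -1.80 ± 0.68 between IL-13 and control (limma adjusted p = 0.198), with -0.71 at 12 h and -2.89 at 24 h.

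**Figure D5:**
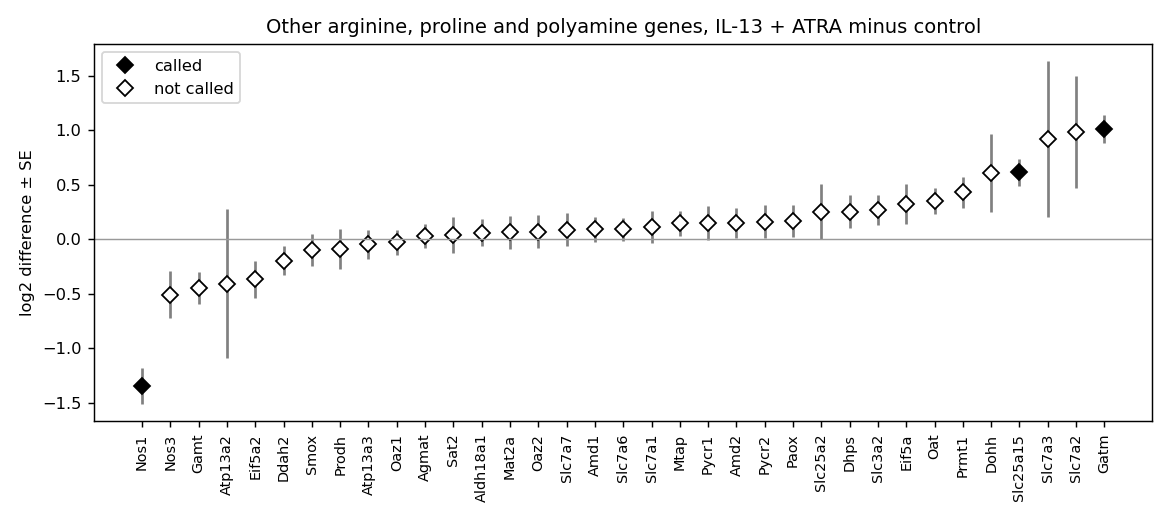
Fitted log2 differences (y axis) with limma's SE for the 35 other genes of arginine, proline and polyamine metabolism that were tested (x axis, in order of the difference), for both agents minus control. Filled diamonds mark the called genes: Nos1 lower, Slc25a15 and Gatm higher.

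Among 518 genes with an SD of at least 1 on the log2 scale over the 8 arrays, Gda, guanine deaminase, had the profile most like that of Arg1 (Pearson r = 0.961), and Azin2 came next (r = 0.958). Smc1b (0.955), Ccl7 (0.951) and Batf3 (0.951) followed. The lowest named gene was Rab26 (r = -0.973). Azin2 thus stood second of 518 by this measure, although its values without IL-13 were below background. For Odc1, whose own range was small, the highest of 519 genes were Bhlhe40 (r = 0.857), Hbegf (0.848), Plk2 (0.841), Ccl2 (0.828) and Bcl6b (0.821), and the lowest named were Nkx6-2 (-0.894) and Scel (-0.858). These correlations are over 8 arrays that share treatments, slides and scaling.

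Time gave 0 called genes by limma, which is 0.0% of all genes, and 1872 had an unadjusted p under 0.05. Of the 10 members 0 were called and 0 had an unadjusted p under 0.05. Within IL-13 cells Arg1 was 1.5 higher at 24 h than at 12 h on the log2 scale, Ass1 1.01 higher and Azin2 0.91 higher, each a difference between 2 arrays on different slides. In control cells the same differences were -0.79, -0.14 and -0.02.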

How the data were processed

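The authors' files held scanner intensity from Agilent Feature Extraction 10.7.1.1, background-subtracted and detrended within each array per the file headers, with no scaling between arrays. The deposited files also give other values per spot, the 0 or 1 flags for well above background, saturation and outliers. The authors' deposited table on a log2 scale, whose method is not given in the sources used here, served as an alternative.

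Control spots were removed and flagged spots set to missing. Log2 processed signals were scaled by each array's 75th percentile. A probe was kept if both arrays of some treatment showed it well above background and at most 1 value was missing (24042 probes). That allowance was set after it was seen that Srm had a flagged spot. The brightest probe stood for its gene.

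The linear model (limma 3.58.1, R 4.3.3) had terms for treatment and time over all 8 arrays, which left 3 residual degrees of freedom, and was checked on simulated data. Tests were two-sided, and a gene was called where its p, adjusted by Benjamini-Hochberg over 15456 genes, was under 0.05. Arg1 and Arg2 passed the filter only through treated groups and Azin2 only through both agents, and such a pass favours a difference from the dim groups. The same holds for Nos1, which passed only through control, and for Slc7a2, which passed only through both agents. Where a treatment was below background on both arrays, folds are nominal bounds. Each array's limit was the higher of the gene's own signal and that array's lowest signal well above background. A signal over that limit can still fall short of well above background, so these bounds are not strict. Other genes were named if called or among the largest differences not called, and the 5 highest and 3 lowest correlations were taken for Arg1 and Odc1. The members and lists were chosen with earlier results of these data known. Alternatives were normexp (offset 50), quantile normalization, the deposited table, other filters, probe averages, other models and each array left out.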

Additional observations from a re-analysis of the deposited data

How the results depend on the processing

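With 2 arrays per treatment at different times, precision is limited by their number, and Arg1 and Azin2 lay below background in control. The counts of called members changed as follows. For IL-13 against control, 2 members became 1 with normexp, 0 without a filter on signal, 0 with only probes well above background on all 8 arrays (which left 7 members, without Arg1, Arg2 and Azin2), 0 when only the compared arrays were fitted and 4 with trend and robust settings. For ATRA against control, 0 became 1, Arg1, with no time term, with time as a random block, with only the compared arrays and with trend and robust settings. For both agents against control, 2 became 0 under the filter on all 8 arrays, and 3 with normexp (adding Sat1), with only the compared arrays (adding Arg2) and with trend and robust settings (adding Sat1). For both agents against IL-13, 1 became 0 with no filter, with the filter on all 8 arrays and with only the compared arrays. For both agents against ATRA, 2 became 1 with normexp and with only the compared arrays, and 0 with no filter and with the filter on all 8 arrays. For the interaction, 0 became 1 with normexp. Leaving out 1 array gave 0 to 2 members for IL-13 against control, 0 to 1 for ATRA against control, 2 to 3 for both agents against control (adding Arg2 without either ATRA array and Sat1 without either IL-13 array), 0 to 1 against IL-13 and 0 to 2 against ATRA. Fewer genes or arrays enter some of these fits, and otherwise the cause was not tested. Arg1 and Azin2 stayed called for both agents against control in 17 of 17 settings that tested them, with adjusted p up to 0.0313 and 0.0419. Of called member differences, 52 kept their call and direction and 11 kept only their direction under alternatives on all arrays, and 41 and 15 did so with 1 array left out. With the authors' deposited values, which keep the flagged Srm spot, Srm was -1.37 for both agents against IL-13. The arrays of each time were paired by the time term of the fit. With no time term the counts of called members were the same except for ATRA against control, and with time as a random block likewise.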
